A study of Homo sapiens with 33 samples.

Results

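The cyclins E, A and B, their 2 kinases and the CDC25 phosphatases were followed across 33 arrays of human anaplastic large cell lymphoma (ALCL) cells. The set comprised 10 genes out of 11963 that the array names: CCNE1, CCNE2, CCNA2, CCNB1, CCNB2, CDK1, CDK2, CDC25A, CDC25B and CDC25C. They were found by gene symbol, which matched 19 probe sets, and 17 of these passed a filter on low signals. All 10 genes kept at least 1 probe set. Each gene is described by its brightest one: 213523_at (CCNE1), 205034_at (CCNE2), 203418_at (CCNA2), 214710_s_at (CCNB1), 202705_at (CCNB2), 210559_s_at (CDK1), 204252_at (CDK2), 204695_at (CDC25A), 201853_s_at (CDC25B) and 205167_s_at (CDC25C).

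The cells were TS, a subclone of the Sup-M2 line, and Su-DHL1. Both lines express a fusion form of the tyrosine kinase ALK. All hairpin cells had received 2 lentiviral vectors, pLV-DsRed-tTRKRAB, which carries a doxycycline-controlled repressor, and pLVTH-GFP-shRNA, which carries the short hairpin. They were sorted for both fluorescent markers, and cells that leaked GFP before induction were sorted away, so the uninduced controls carry the same vectors. The 7 hairpin groups were TS with the ALK hairpin A5 and doxycycline (1 microg/ml) for 84 h, TS with the mutated hairpin A5M and doxycycline for 84 h, TS with A5 left uninduced at 84 h, TS with A5 induced for 72 h, its uninduced counterpart, Su-DHL1 with A5 induced for 72 h and, again, its uninduced counterpart. The remaining 4 groups were TS cells given for 6 h the pyrrolocarbazole-derived compound A2, A3 or A1 at 300 nM, or no compound (U). A1 is the mock compound by the study's design text, although its sample descriptions list it among the ALK inhibitors, and U is diluent by one source and untreated by the other. Every group had 3 arrays, and nothing in the labels states that these were separate cultures, so a p-value here rests on the spread between arrays, which may be technical.

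Cyclins are the regulatory subunits that switch cyclin-dependent kinases on and choose their substrates. Cyclin E with CDK2 acts at entry into S phase, cyclin A with CDK2 and then CDK1 in S and G2 phase, and cyclin B with CDK1 drives mitosis. The kinases are held back by inhibitory phosphates that WEE1 and PKMYT1 add and that the CDC25 phosphatases remove. Transcription of CCNE1, CCNE2 and CDC25A is known to depend on E2F factors, whereas genes that peak in G2 and M phase are known to be controlled through the cell cycle genes homology region (CHR) and CCAAT boxes, which the DREAM complex, MYBL2, FOXM1 and NF-Y use. In bulk RNA of this kind, fewer cells in S, G2 or M phase and less of a transcript per cell cannot be told apart.

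Promoter windows from RefSeq (assembly GRCh38.p14) ran from 250 bases before to 50 after a transcription start. For 8 of the 10 genes, all but CCNE2 and CDK2, 15 such windows were used. They were searched on both strands for the CHR (TTTGAA or TTCGAA), the CCAAT box (CCAAT) and an E2F site (TTTCCCGC, TTTCGCGC, TTTGCCGC or TTTGGCGC), and none of the 3 kinds overlaps another in the windows printed. Shown are the 3 CDC25 genes, because they moved apart from each other in the data below, and CCNB2 and CDK1 as G2 and M phase genes that fell with the hairpin. CCNA2 and CCNB1 fell as well, and their windows, not shown, held neither TTTGAA nor TTCGAA on either strand. Other forms of the CHR were not searched. Where a gene has several starts, the window shown is one with a CHR match, chosen after the matches were seen. Capitals mark the matches on either strand. The windows are CDC25A at chr3:48188368-48188667 (minus strand), CDC25B at chr20:3796060-3796359 (plus strand), CDC25C at chr5:138331755-138332054 (minus strand), CCNB2 at chr15:59104896-59105195 (plus strand) and CDK1 at chr10:60778228-60778527 (plus strand).
CDC25A: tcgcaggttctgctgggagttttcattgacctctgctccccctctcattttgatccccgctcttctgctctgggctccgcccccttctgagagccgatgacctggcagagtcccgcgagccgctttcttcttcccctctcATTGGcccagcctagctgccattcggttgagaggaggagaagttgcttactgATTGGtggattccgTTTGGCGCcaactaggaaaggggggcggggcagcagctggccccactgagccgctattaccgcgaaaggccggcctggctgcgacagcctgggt
CDC25B: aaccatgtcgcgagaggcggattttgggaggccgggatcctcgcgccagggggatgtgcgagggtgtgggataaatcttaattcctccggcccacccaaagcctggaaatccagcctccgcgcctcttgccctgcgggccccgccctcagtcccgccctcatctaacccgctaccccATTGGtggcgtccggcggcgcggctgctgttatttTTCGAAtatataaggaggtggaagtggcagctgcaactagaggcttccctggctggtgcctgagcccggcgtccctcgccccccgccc
CDC25C: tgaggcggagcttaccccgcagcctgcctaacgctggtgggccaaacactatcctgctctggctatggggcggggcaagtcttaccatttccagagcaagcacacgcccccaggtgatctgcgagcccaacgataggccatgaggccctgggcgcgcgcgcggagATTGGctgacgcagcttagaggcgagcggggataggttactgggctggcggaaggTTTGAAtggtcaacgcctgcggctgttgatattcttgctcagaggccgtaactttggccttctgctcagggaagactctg
CCNB2: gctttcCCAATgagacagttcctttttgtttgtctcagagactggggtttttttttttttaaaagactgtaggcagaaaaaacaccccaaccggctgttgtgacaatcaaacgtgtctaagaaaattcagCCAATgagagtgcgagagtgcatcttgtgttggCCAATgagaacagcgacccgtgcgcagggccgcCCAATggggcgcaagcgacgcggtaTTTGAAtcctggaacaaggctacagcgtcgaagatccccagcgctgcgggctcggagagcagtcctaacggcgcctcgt
CDK1: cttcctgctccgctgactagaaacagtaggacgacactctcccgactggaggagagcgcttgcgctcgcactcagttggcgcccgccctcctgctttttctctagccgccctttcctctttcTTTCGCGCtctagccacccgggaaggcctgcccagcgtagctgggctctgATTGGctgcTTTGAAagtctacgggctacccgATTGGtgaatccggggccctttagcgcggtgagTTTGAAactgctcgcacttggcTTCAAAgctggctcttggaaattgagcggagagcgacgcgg

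The CHR letters lay 29 to 24 bases before the start in CCNB2 (bases -29 to -24, counting the first transcribed base as 1), at -30 to -25 in CDC25C and at -38 to -33 in CDC25B. CDK1 held them at -69 to -64, at -13 to -8 and at 10 to 15. CDC25A held no CHR match in its window but a match to the E2F letters at -44 to -37, and CDK1 held one at -128 to -121. Of the 15 windows, some of which overlap, 6 held a CHR match (in CCNB2, CDC25B, CDC25C and CDK1), 10 a CCAAT box and 3 an E2F match. The E2F matches were in CDC25A and CDK1, and the CDK1 windows overlap and share theirs. The CCNE1 window, not shown, held no match of any of the 3 kinds. CCNE2, whose transcription is known to depend on E2F factors, and CDK2 were left out of the search. The counts of matches therefore do not cover the promoters of CCNE2 and CDK2. Of all 35116 promoter windows of that table, 16.4% held a CHR match, 34.6% a CCAAT box, 3.31% an E2F match and 6.38% both a CHR match and a CCAAT box. CCNB2 held 4 CCAAT boxes, and 10.8% of all windows held 2 or more. A match of letters is a description and not evidence of a bound site.

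The ALK probe set fell with the hairpin in each setting, which checks the labels. At 84 h it read 201.1, 253.9 and 289 in TS cells with induced A5, 1667.2, 1652 and 1739 with A5M, and 1927.3, 2090.7 and 2100.3 without doxycycline. Its log2 fold change was -3.00 ± 0.11 there, -2.44 ± 0.11 at 72 h, and -2.20 ± 0.11 in the Su-DHL1 line. Markers of the lymphoma line (ALK, TNFRSF8 and IL2RA) were all above the filter's 40th percentile of the array by their median. Their summed signal, which includes the hairpin's target ALK, moved with the groups. Per array it was 869.8 to 1016.2 in induced TS cells at 84 h, 4470.1 to 5151.4 with A5M and 5738.4 to 6319.9 in uninduced cells. After 6 h it was 3467.3 to 3826.6 with A2, 3243.2 to 3824 with A3, 6656 to 8078.4 with A1 and 7377.3 to 8646.9 in U. Of the 6 T-cell markers CD3D had a median percentile of 94.1, CD2, CD3E, CD4 and CD8A had 42.4 to 50.7 and CD3G, at 21.2, was below the filter, as were the 4 B-cell markers measured. The myeloid markers CD163 and CSF1R were expressed in these cells too, at group means of 944.4 to 2413 and 64.1 to 490.1, while the group means of CD14 and LYZ were at or under 10.2. ITGAM, the remaining myeloid marker, had a median percentile of 50.9. Of 7 epithelial and stromal markers 4 were below the filter, and COL1A1 (65.6), KRT8 (47.7) and KRT18 (45.7) were above it. Of 2 erythroid markers measured, ALAS2 (6.96) was below it and HBB (59.2) above. The summed signal of the 5 myeloid markers moved with the groups: per array it was 1312.2 to 1398.2 in induced TS cells at 84 h, 2437.3 to 2998.1 with A5M and 2009.9 to 2141.4 in uninduced cells, and 1222.6 to 1343.7 with A2, 1313 to 1532 with A3, 2151.5 to 2282.4 with A1 and 2022.7 to 2312.8 in U. The part of either summed signal in the results was not tested. The 3' to 5' signal ratio of the ACTB control probe sets, which depends on RNA quality and labelling, moved with the groups: its mean was 1.27 in induced and 1.54 in uninduced TS cells at 84 h, 1.32 and 1.59 at 72 h, 1.36 and 1.39 in Su-DHL1 cells, and 1.05 with A2, 1.06 with A3, 1.33 with A1 and 1.18 in U. The results were also fitted with this ratio as a covariate, and calls that this ended are named below. Because the ratio moved with the groups, the covariate also widens the standard errors of group differences. A call lost with it is therefore not evidence of no change.

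Values below are MAS5 signals, a linear intensity per probe set that was scaled to a common mean on every array, so that a global change of RNA content cannot be seen. Each probe set has its own response, so levels are compared between samples and never between genes. Log2 fold changes are differences of log2(signal + 11), which understates the change of dim genes, and the ± beside them is the standard error of limma, a linear model fitted to all genes. A gene is called when its p, adjusted by Benjamini-Hochberg over all genes tested, is below 0.05.

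In TS cells with the ALK hairpin induced for 84 h, 9 of the 10 genes fell and CDC25B was not called. In this comparison 40.6% of the 9101 genes tested were called, and 18.8% of those tested were called lower. The median log2 fold change of the 10 genes was -2.11, against 0.06 over all genes. CCNE1 was at 63.3% and CCNA2 at 12.9% of their uninduced mean signal, while the induced signals of CDC25A and CCNE2, 7.9 to 14.1, were too close to the added constant of 11 for such a share.

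**Figure D1:**
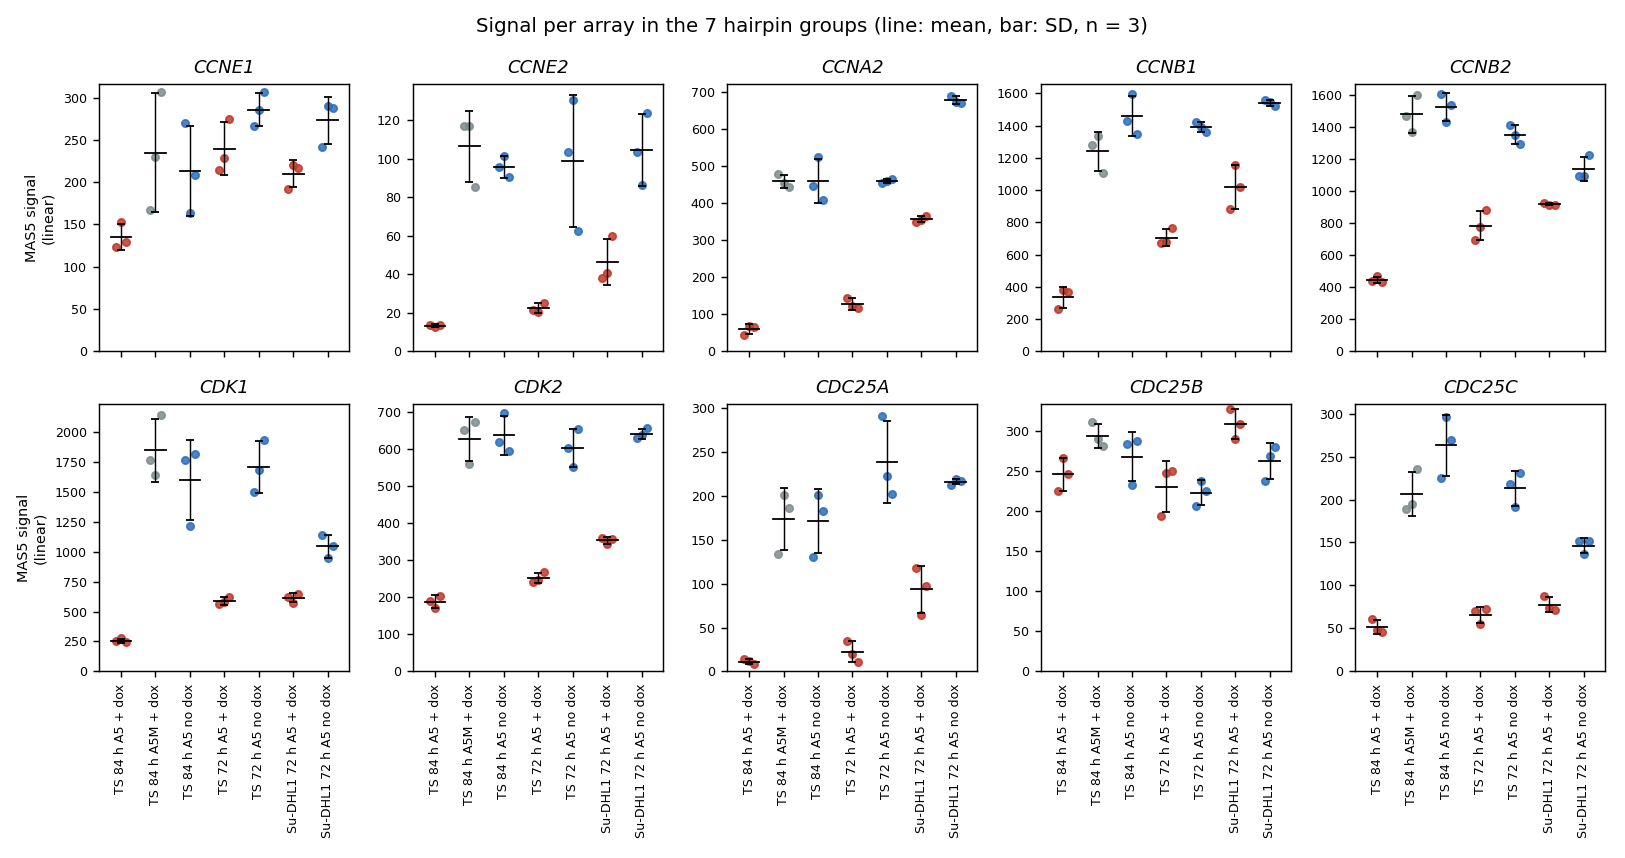
MAS5 signal (linear, vertical axis from 0) of each of the 10 genes in the 7 hairpin groups, 3 arrays a group, with the mean as a line and the SD as a bar; red points are the induced ALK hairpin, grey points the mutated hairpin A5M and blue points the uninduced cells. CDC25A, CCNE2 and CCNA2 stand lowest against their controls in TS cells at 84 h, CCNE1 moves less, and induced and uninduced CDC25B arrays of TS cells overlap.

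Among the kinases, CDK1, the partner of cyclins A and B, read 252.8, 276.1 and 241.5 in induced cells at 84 h, against 1765.9, 1640.2 and 2145 with A5M and 1767, 1218 and 1816 without doxycycline. All 3 induced arrays lay below every control array. The log2 fold change of CDK1 was -2.57 ± 0.13 (adjusted p = 1.09e-13). CDK2, the partner of cyclins E and A, read 189.8, 171.1 and 203.9 in induced cells, against 649.4, 559.8 and 672.7 with A5M and 618.7, 695.4 and 594.1 without doxycycline. These groups did not overlap either, and CDK2 fell by 1.70 ± 0.10 on the log2 scale (adjusted p = 9.11e-13).

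The E cyclins both fell, and the size for CCNE2 depended on the probe set. On its main probe set CCNE2 read 13.7, 12.7 and 13.7 in induced cells, against 117, 116.9 and 85.2 with A5M and 95.6, 101.5 and 90.3 without doxycycline. The induced arrays were close to the added constant of 11, so the log2 fold change of -2.13 ± 0.21 (adjusted p = 1.91e-08) understates the ratio: CCNE2 gave -2.75 with a constant of 1. The other CCNE2 probe set, 211814_s_at, was at -0.61 (adjusted p = 0.0251 in a limma fit over all probe sets), and the mean of both at -1.37. CCNE1 read 123.2, 153 and 129.6 in induced cells, against 167, 230.2 and 307.3 with A5M and 269.7, 163.5 and 208.1 without doxycycline. The induced CCNE1 arrays were all below the controls, but the highest of them, 153, was near the lowest control array, 163.5. Its log2 fold change of -0.60 ± 0.17 (adjusted p = 0.0073) lost its call with the ACTB ratio as a covariate (-0.73, adjusted p = 0.0953) and without uninduced replicate 1 (-0.42, adjusted p = 0.0698).

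The S phase to G2 cyclin CCNA2 read 44.3, 68.8 and 64.6 in induced cells, against 478.9, 454.4 and 443 with A5M and 445.4, 524.2 and 407.8 without doxycycline. It fell by 2.75 ± 0.12 on the log2 scale (adjusted p = 7.71e-15), to 12.9% of the uninduced mean. The mitotic cyclins CCNB1 and CCNB2 fell less. CCNB1 read 261.3, 379.6 and 367.9 in induced cells, against 1283, 1337 and 1104.4 with A5M and 1427.4, 1594.3 and 1350.7 without doxycycline. CCNB2 read 436.8, 469 and 432.4 in induced cells, against 1468.9, 1371 and 1600.1 with A5M and 1607.1, 1435.1 and 1536.7 without doxycycline. Induced and control arrays were far apart for both, with log2 fold changes of -2.10 ± 0.12 for CCNB1 and -1.75 ± 0.09 for CCNB2.

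Of the phosphatases, CDC25A, which activates CDK2 at entry into S phase, read 14.1, 11.5 and 7.9 in induced cells, against 134.2, 200.8 and 186.7 with A5M and 131, 201.3 and 183.1 without doxycycline. The induced signals were around the added constant of 11, so the log2 fold change of CDC25A (-3.03 ± 0.24, adjusted p = 2.30e-10) depends on it, with -3.84 for a constant of 1 and -1.85 for a constant of 50. The other CDC25A probe set, 204696_s_at, was at -1.42 (adjusted p = 0.000947 in a limma fit over all probe sets). CDC25C, which activates CDK1 and cyclin B at mitosis, read 60.9, 48 and 46.1 in induced cells, against 188.6, 195.3 and 235.2 with A5M and 224.9, 295.6 and 268.9 without doxycycline. It fell by 2.13 ± 0.14 on the log2 scale (adjusted p = 1.56e-11). CDC25B, which acts on cyclin B and CDK1 in G2 phase, read 225.4, 266.6 and 246.3 in induced cells, against 310.7, 289.6 and 281.3 with A5M and 283, 232.2 and 287.7 without doxycycline. Induced and uninduced CDC25B arrays overlapped, and the log2 fold change was -0.11 (95% interval -0.35 to 0.13, adjusted p = 0.487).

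Against the mutated hairpin, both with doxycycline, the same direction was found: 9 of the 10 genes were lower with A5, where 43.3% of genes were called and 20% were lower. The log2 fold changes ran from -3.05 ± 0.24 for CDC25A (-1.52 on its other probe set) to -0.71 ± 0.17 for CCNE1. CDC25B was at -0.25 ± 0.12 (adjusted p = 0.0903), and at -0.29 (adjusted p = 0.0467) after quantile normalization. This comparison shares the induced arrays with the one before. A5M with doxycycline against uninduced A5 gave limma calls for 0 of the 10 genes, against 6.99% of all genes, and 1 gene, CDC25C, had an unadjusted p below 0.05 (-0.33, 95% interval -0.63 to -0.04). The CDK1 difference there was 0.22 (95% interval -0.05 to 0.49) and that of CCNE2 0.12 (95% interval -0.32 to 0.57).

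At 72 h in TS cells 8 of the 10 genes fell, where 34.2% of genes were called and 15.2% were lower, and the median of the 10 was -1.37 against 0.07 over all genes. CDC25A read 35.1, 20.2 and 11.2 in induced cells, against 291.2, 223.3 and 202 without doxycycline, a log2 fold change of -2.96 ± 0.24. The other CDC25A probe set was at -0.81 and not called (adjusted p = 0.0552 in a limma fit over all probe sets). CCNA2 read 144.7, 122.6 and 115.5 in induced cells, against 454.6, 459.4 and 464.8. CCNE2 read 21.5, 20.5 and 25.3 in induced cells, against 103.6, 130.3 and 62.6. On these probe sets the 3 genes had the largest changes of the 10, and in each the induced arrays lay below all uninduced ones; CCNA2 was at -1.77 ± 0.12 and CCNE2 at -1.67 ± 0.21 (-0.64 on its other probe set). CDC25C read 69.9, 55.5 and 72.6 in induced cells, against 217.7, 190.8 and 231.1. CDK1 read 560.2, 577 and 623.5 in induced cells, against 1504.3, 1681.3 and 1937.6. CDK2 read 239.5, 247.1 and 267.7 in induced cells, against 602.5, 551 and 654.2. The log2 fold changes of these were -1.54 ± 0.14, -1.52 ± 0.13 and -1.22 ± 0.10, again without overlap of the groups.

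The B cyclins changed least among the 8 genes that fell at 72 h. CCNB1 read 670.7, 679 and 766.3 in induced TS cells, against 1423.2, 1389.9 and 1360.9 without doxycycline (-0.97 ± 0.12). CCNB2 read 698.1, 776.4 and 881.3 in induced cells, against 1412.2, 1352.2 and 1298 (-0.78 ± 0.09). Neither CCNE1 nor CDC25B was called. CCNE1 read 214.9, 228.7 and 274.8 in induced cells, against 266.4, 285.5 and 306.2, with overlapping groups and a log2 fold change of -0.25 (95% interval -0.61 to 0.11, adjusted p = 0.297). CDC25B read 193.3, 247.7 and 249.4 in induced cells, against 205.9, 237.6 and 225.4, and its log2 fold change was 0.04 (95% interval -0.20 to 0.28).

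In Su-DHL1 cells at 72 h the same 8 genes fell, where 24.6% of genes were called and 10.7% were lower, and the changes were smaller, with a median of -0.79 against 0.08 over all genes. CDC25A read 118.1, 64.3 and 97.7 in induced cells, against 213.1, 219.1 and 217.4 without doxycycline. CCNA2 read 348.9, 355.8 and 365.9 in induced cells, against 690.5, 673.2 and 670.5. CDK1 read 625.2, 572.5 and 650.7 in induced cells, against 1142.8, 949.4 and 1053.2. The groups of each of these genes were apart, with log2 fold changes of -1.16 ± 0.24, -0.91 ± 0.12 and -0.75 ± 0.13. CCNE2 read 38, 40.5 and 59.8 in induced cells, against 103.5, 86.3 and 123.9. CDC25C read 87.4, 74.1 and 71.4 in induced cells, against 151.8, 136.4 and 151.2. CDK2 read 359.3, 343.3 and 355.9 in induced cells, against 629, 637.7 and 655.6. No induced array of CCNE2, CDC25C or CDK2 reached an uninduced one, and the log2 fold changes were -1.02 ± 0.21, -0.83 ± 0.14 and -0.84 ± 0.10. The further probe sets of CCNE2 (-0.39), CDC25C (-0.40) and CDK2 (-0.57) were not called here (adjusted p = 0.167 to 0.268 in a limma fit over all probe sets).

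Among the mitotic cyclins of Su-DHL1 cells, CCNB1 read 882.6, 1154.5 and 1020.1 in induced cells, against 1559.2, 1544.7 and 1522.6 without doxycycline (-0.60 ± 0.12). CCNB2 read 927.8, 916.6 and 914.5 in induced cells, against 1095.8, 1097.8 and 1225.1 (-0.30 ± 0.09, adjusted p = 0.013), and this call was lost without uninduced replicate 3 (-0.25, adjusted p = 0.0745). CCNE1 read 191.5, 220.9 and 217.2 in induced cells, against 241.2, 290.8 and 287.6. Although these groups did not overlap, CCNE1 was not called (-0.36 ± 0.17, adjusted p = 0.142), and it was called with only these 2 groups in the fit (adjusted p = 0.0339). CDC25B read 327.2, 290.4 and 308.7 in induced cells, against 237.5, 269.1 and 280.1. Induced CDC25B arrays lay above the uninduced ones, and the difference was not called (0.23, 95% interval -0.01 to 0.47, adjusted p = 0.169).

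Averaged over the 3 settings, 9 of the 10 genes fell, where 50.8% of genes were called and 21.7% were lower. The order by log2 fold change was CDC25A (-2.38 ± 0.14), CCNA2 (-1.81 ± 0.07), CDK1 (-1.61 ± 0.07), CCNE2 (-1.61 ± 0.12), CDC25C (-1.50 ± 0.08), CDK2 (-1.25 ± 0.06), CCNB1 (-1.22 ± 0.07), CCNB2 (-0.95 ± 0.05), CCNE1 (-0.40 ± 0.10) and CDC25B (0.05 ± 0.07). With the mean of a gene's probe sets CDC25A was at -1.72, close to CCNA2 at -1.72, and CCNE2 at -1.08, so the places of CDC25A and CCNE2 in this order rest on their main probe sets. With its average of 0.05 (95% interval -0.09 to 0.19), CDC25B was the only one of the 10 not called. CCNE1 was called at an adjusted p of 0.00149 and was at -0.50 (adjusted p = 0.0726) with the ACTB ratio as a covariate.

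**Figure D2:**
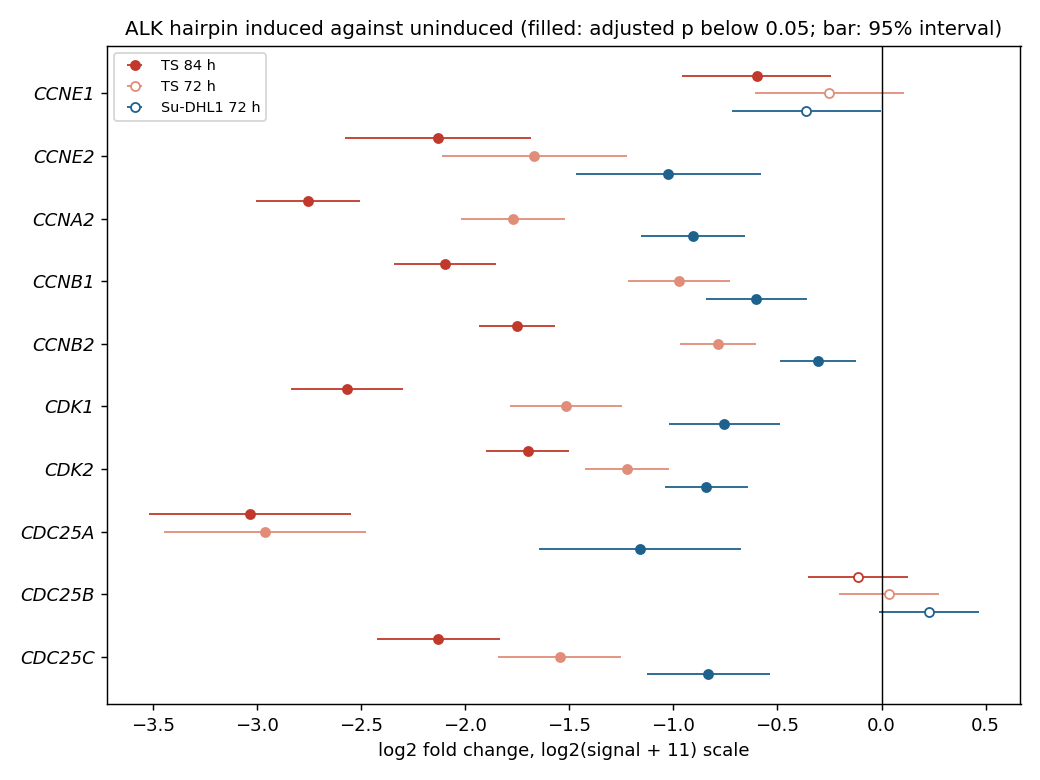
Log2 fold change (horizontal axis, log2(signal + 11) scale) of each gene for the ALK hairpin induced against uninduced in TS cells at 84 h, TS cells at 72 h and Su-DHL1 cells at 72 h; bars are 95% intervals and filled points were called. From CCNE2 to CDC25A the points run from TS at 84 h on the left to Su-DHL1 on the right, and CDC25B lies around 0 in each setting.

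Whether related genes changed by unequal amounts was tested within arrays, on the difference of the log2 signals of 2 genes, for 6 pairs in each experiment with an exact permutation test (two-sided, adjusted over the 6 pairs, 8000 permutations within settings for the hairpin). CCNE1 fell less than CCNE2 by 1.20 (adjusted p = 0.000375 by the exact test). That difference was 0.67 with the mean of both CCNE2 probe sets (adjusted p = 0.00075 by the exact test) and 0.62 with a constant of 50, and the other CCNE2 probe set alone was at -0.54 against -0.40 for CCNE1. CDC25A fell more than CDC25B, with a difference of -2.44, and more than CDC25C, with a difference of -0.88 (adjusted p = 0.000375 by the exact test for each). The difference to CDC25C was -0.43 with the means of the probe sets (adjusted p = 0.0039 by the exact test) and -0.45 with a constant of 50. On the other CDC25A probe set, at -1.06, it was not found, since the 2 probe sets of CDC25C were at -1.50 and -1.08. CCNA2 fell more than CCNB1 (-0.59, adjusted p = 0.000375), and CCNB1 more than CCNB2 (-0.28, adjusted p = 6e-04), both by the exact test. The difference between CCNA2 and CCNB1 was -0.36 with a constant of 50. The test compares probe sets, so an unequal response of 2 probe sets cannot be told apart from an unequal change of 2 genes. CCNB1 and CCNB2 have no further probe set to compare. For CDK1 against CDK2 the difference was -0.36 (exact permutation test, adjusted p = 0.0185), and -0.55 with the means of the probe sets. It was -0.35 (adjusted p = 0.05) without induced replicate 1 and -0.33 (adjusted p = 0.0545) without induced replicate 3 of TS at 84 h, -0.10 (adjusted p = 0.25) without TS at 84 h and -0.39 (adjusted p = 0.135) without TS at 72 h, all by the exact test for CDK1.

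The response differed between the lines for 4 genes, where 2.89% of genes were called and 1.68% in this direction. The difference, Su-DHL1 minus TS at 72 h, was 1.80 ± 0.33 for CDC25A (adjusted p = 0.00189), 0.86 ± 0.17 for CCNA2 (adjusted p = 0.00374), 0.76 ± 0.18 for CDK1 (adjusted p = 0.0188) and 0.48 ± 0.12 for CCNB2 (adjusted p = 0.0338), each a smaller fall in Su-DHL1 cells. The other probe set of CDC25A, 204696_s_at, gave a difference of -0.15, and the mean of both CDC25A probe sets gave 0.83 (adjusted p = 0.163). Of the 4 further probe sets of CDC25A, CCNA2 and CDK1, 1 was called: 213226_at of CCNA2 was at 0.70 (adjusted p = 0.0967) and 203213_at of CDK1 at 0.59 (adjusted p = 0.196), neither passing in a limma fit over all probe sets. CDC25C, not called here (0.71), was called with the mean of its probe sets (0.76, adjusted p = 0.0215), with a constant of 50 (0.56, adjusted p = 0.043) and with only these groups in the fit (adjusted p = 0.0388). The CCNB2 call was lost when any 1 array of TS cells at 72 h except induced replicate 3 and uninduced replicate 3, or any 1 Su-DHL1 array except uninduced replicate 3, was left out (0.40 to 0.48, adjusted p = 0.0596 to 0.126). The CDK1 call was lost without induced replicate 1 (0.73, adjusted p = 0.056) or uninduced replicate 3 of TS (0.67, adjusted p = 0.0689), and without induced replicate 3 (0.72, adjusted p = 0.0513) or uninduced replicate 2 of Su-DHL1 (0.69, adjusted p = 0.0654). With the ACTB ratio as a covariate CCNA2 was at 0.78 (adjusted p = 0.116) and CDK1 at 0.84 (adjusted p = 0.115). The ALK probe set itself differed by 0.24 ± 0.15 (adjusted p = 0.563). Its level was not equal in the lines: induced cells read 631.3, 651.3 and 629 in Su-DHL1 and 314.6, 287.3 and 388.6 in TS. In uninduced cells ALK was higher in Su-DHL1 by 0.70 ± 0.11.

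Uninduced cells of the 2 lines also differed. Su-DHL1 against TS at 72 h gave calls for 4 of the 10 genes, where 21.2% of genes were called, 10.8% higher and 10.4% lower. CCNA2 was higher in Su-DHL1 (0.55 ± 0.12, adjusted p = 0.0016), and CDK1 (-0.69 ± 0.13, adjusted p = 0.000331), CDC25C (-0.51 ± 0.14, adjusted p = 0.0115) and CCNB2 (-0.25 ± 0.09, adjusted p = 0.0479) were lower. Of the further probe sets, 213226_at of CCNA2 (0.31, adjusted p = 0.178), 203213_at of CDK1 (-0.33, adjusted p = 0.146) and 217010_s_at of CDC25C (-0.47, adjusted p = 0.192) were not called in a limma fit over all probe sets, and 203214_x_at of CDK1 was (-0.60). CDC25C was not called with the ACTB ratio as a covariate (-0.52, adjusted p = 0.112). The CDC25C call was lost without uninduced replicate 3 of TS (-0.45, adjusted p = 0.0589) or uninduced replicate 2 of Su-DHL1 (-0.46, adjusted p = 0.0546). The CCNB2 call was lost without any 1 of 5 of the 6 arrays (-0.28 to -0.22, adjusted p = 0.0603 to 0.162).

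Between 72 h and 84 h in TS cells the fall deepened for 4 genes, all of the A and B cyclins and CDK1, where 1.27% of genes were called and 0.978% in this direction. The difference of the responses, 84 h minus 72 h, was -1.12 ± 0.17 for CCNB1 (adjusted p = 0.000368), -1.05 ± 0.18 for CDK1 (adjusted p = 0.0019), -0.98 ± 0.17 for CCNA2 (adjusted p = 0.00183) and -0.97 ± 0.12 for CCNB2 (adjusted p = 6.46e-05). The 6 other genes were not called. CDC25A was at -0.07 (95% interval -0.76 to 0.62), where its induced signals were low at both times, CDK2 at -0.48 (95% interval -0.76 to -0.19, adjusted p = 0.108), CDC25C at -0.58 ± 0.20 (adjusted p = 0.22) and CCNE2 at -0.46 (95% interval -1.09 to 0.17). The ALK probe set was at -0.56 ± 0.15 in this comparison and was not called (limma, adjusted p = 0.0795). Time and any other difference between the samples of 84 h and 72 h cannot be told apart.

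After 6 h with the inhibitors the genes did not fall together: CDC25C and CDC25B rose, CCNE1 fell with A2, and CDC25A fell with A3. A2 against A1 gave calls for 6 of the 10 genes, 5 higher and 1 lower, where 33.4% of genes were called, 19.1% higher and 14.3% lower. A3 against A1 gave calls for 3 genes, 2 higher and 1 lower, where 32.7% of genes were called, 18.5% higher and 14.2% lower. The medians of the 10 log2 fold changes were 0.38 with A2 and 0.21 with A3, against 0.02 and 0.04 over all genes. Both comparisons share the A1 arrays.

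**Figure D3:**
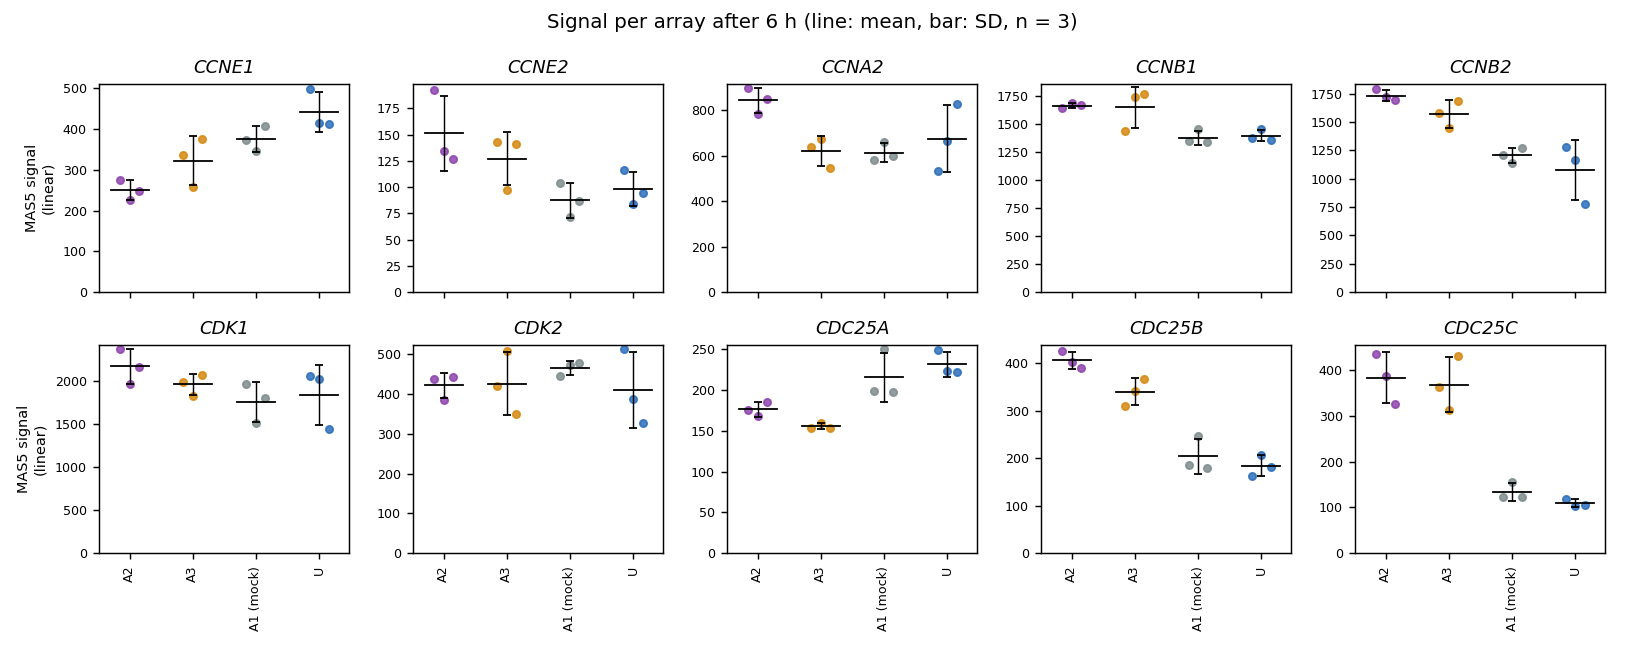
MAS5 signal (linear, vertical axis from 0) of each of the 10 genes after 6 h in TS cells with A2, A3, A1 and U, 3 arrays a group, with the mean as a line and the SD as a bar. CDC25B and CDC25C are higher with A2 and A3 than in all A1 and U arrays, and CDC25A is lower.

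CDC25C read 436.8, 388.1 and 325.4 with A2 and 362.5, 313.3 and 431.1 with A3, against 122.1, 156.5 and 123.8 with A1 and 119.4, 103 and 104.6 in U. The lowest inhibitor array, 313.3, was far above the highest control array, 156.5. The log2 fold change against A1 was 1.44 ± 0.15 for A2 (adjusted p = 1.22e-06) and 1.39 ± 0.15 for A3 (adjusted p = 1.98e-06), and against U it was 1.71 ± 0.15 and 1.65 ± 0.15. CDC25C ranked 59 from the highest of 8594 genes in the average of both inhibitors against A1.

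CDC25B read 425.6, 402.1 and 390 with A2 and 310.7, 341.6 and 366.7 with A3, against 186.4, 246.2 and 178.6 with A1 and 162.3, 206.7 and 182.3 in U. These groups did not overlap, and the log2 fold change against A1 was 0.97 ± 0.14 for A2 (adjusted p = 3.36e-05) and 0.72 ± 0.14 for A3 (adjusted p = 0.000581). CDC25A read 175.2, 167.8 and 185.9 with A2 and 153.2, 159.7 and 153.4 with A3, against 198.2, 250.7 and 197.7 with A1 and 249.4, 223.2 and 222.3 in U. All inhibitor arrays of CDC25A lay below all control arrays. The change was called for A3 (-0.44 ± 0.13, adjusted p = 0.0123) and not for A2 (-0.27, 95% interval -0.53 to -0.003, adjusted p = 0.115), and the A3 call of CDC25A was lost without A1 replicate 2 (-0.33, adjusted p = 0.0574) and with the ACTB covariate (-0.44, adjusted p = 0.138). With A2 the other CDC25A probe set was called (-0.72, adjusted p = 0.00414 in a limma fit over all probe sets), as was the mean of both (-0.49, adjusted p = 0.00676).

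With A2 the E cyclins moved in opposite directions, although neither call held with the ACTB ratio as a covariate. CCNE1 read 274.6, 226.6 and 248.6 with A2 and 335, 257.2 and 374.7 with A3, against 372, 346 and 407.4 with A1 and 497.1, 415.1 and 412.5 in U. CCNE2 read 192.5, 134.6 and 127.1 with A2 and 142.8, 97.7 and 140.8 with A3, against 104.3, 71.5 and 86.7 with A1 and 116.2, 84.3 and 94.7 in U. A2 arrays were below A1 arrays for CCNE1 and above them for CCNE2, whereas A3 arrays overlapped A1 for both. With A2, CCNE1 was at -0.57 ± 0.14 (adjusted p = 0.00464) and CCNE2 at 0.71 ± 0.19 (adjusted p = 0.00856), and the CCNE2 call was lost without A2 replicate 1 (0.54, adjusted p = 0.0588). With that covariate they were at -0.47 (adjusted p = 0.165) for CCNE1 and 0.84 (adjusted p = 0.0668) for CCNE2. With A3, CCNE1 was at -0.23 ± 0.14 and CCNE2 at 0.48 ± 0.19 (adjusted p = 0.066), and CCNE2 was called without A1 replicate 1 (0.60, adjusted p = 0.0434) or A3 replicate 2 (0.65, adjusted p = 0.024) and with the mean of both probe sets (0.61, adjusted p = 0.00279).

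CCNA2 read 894.7, 784.2 and 847.2 with A2 and 637.3, 675 and 546.3 with A3, against 579.5, 660.4 and 598.6 with A1 and 532.6, 663.9 and 825 in U. A2 arrays were above A1 arrays and overlapped U, and the call with A2 against A1 (0.45 ± 0.14, adjusted p = 0.0189) was lost without A1 replicate 1 (0.41, adjusted p = 0.0648), A1 replicate 3 (0.44, adjusted p = 0.0533) or A2 replicate 1 (0.41, adjusted p = 0.0692). It was also lost with the ACTB ratio as a covariate (0.47, adjusted p = 0.162), and 213226_at of CCNA2 was not called (0.35, adjusted p = 0.0957 in a limma fit over all probe sets). CCNB2 read 1788.5, 1720.5 and 1690.5 with A2 and 1575.8, 1443.6 and 1686.7 with A3, against 1207, 1136.1 and 1274.8 with A1 and 1280.9, 1168.6 and 779.8 in U. All inhibitor arrays were above the controls, with a log2 fold change against A1 of 0.52 ± 0.15 for A2 (adjusted p = 0.00996) and 0.38 ± 0.15 for A3 (adjusted p = 0.0567). For CCNB2 the A2 call was lost with the ACTB ratio as a covariate (0.62, adjusted p = 0.0683), and A3 was called after quantile normalization (adjusted p = 0.0489).

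CCNB1 read 1643.4, 1688 and 1669.4 with A2 and 1441, 1743.5 and 1774.1 with A3, against 1347.8, 1453.3 and 1338.9 with A1 and 1375.2, 1459.9 and 1362.8 in U. It was not called against A1 with A2 (0.27 ± 0.10, adjusted p = 0.0537) or with A3 (0.25 ± 0.10, adjusted p = 0.0716), and was called with A3 without A3 replicate 1 (0.35, adjusted p = 0.0194) and with A2 after quantile normalization (0.29, adjusted p = 0.044). CDK1 read 2372.3, 1967.5 and 2162.4 with A2 and 1989.7, 1819.7 and 2061.7 with A3, against 1967.6, 1505.5 and 1794.5 with A1 and 2059.6, 2018.8 and 1436.3 in U. CDK2 read 437.2, 385.5 and 443 with A2 and 420.9, 508.5 and 349.7 with A3, against 446.5, 474.2 and 477.5 with A1 and 514.2, 388.4 and 327.9 in U. On the main probe sets neither kinase was called: CDK1 was at 0.31 (95% interval 0.01 to 0.60) with A2 and 0.16 (95% interval -0.14 to 0.46) with A3, and CDK2 at -0.14 (95% interval -0.47 to 0.19) with each. CDK1 with A2 was called after quantile normalization (0.35, adjusted p = 0.042) and with the mean of its probe sets (0.30, adjusted p = 0.027). In a limma fit over all probe sets 203214_x_at of CDK1 was called with A2 (0.76, adjusted p = 7.84e-05) and A3 (0.56, adjusted p = 0.00127), while 203213_at was at -0.16 with A2 and called lower with A3 (-0.55, adjusted p = 0.0263), so the direction for CDK1 differed between its probe sets.

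Averaged over A2 and A3, 7 of the 10 genes were called against A1, where 38.2% of genes were called, 21.9% higher and 16.3% lower. CDC25C (1.41 ± 0.13), CDC25B (0.84 ± 0.12), CCNE2 (0.60 ± 0.17), CCNB2 (0.45 ± 0.13) and CCNB1 (0.26 ± 0.09) rose, and CCNE1 (-0.40 ± 0.12) and CDC25A (-0.35 ± 0.11) fell. With the ACTB ratio as a covariate 2 genes were called, and those were CDC25B and CDC25C. The share of all genes called with this covariate is not given here, so the 2 cannot be set against it. CCNE2 (0.73), CCNB2 (0.55) and CDC25A (-0.36) lost their call with estimates no smaller in size, and CCNB1 (0.17) and CCNE1 (-0.30) with smaller ones. Leaving out 1 array ended the call of CCNB1 (without A1 replicate 1 or 3 or A3 replicate 2 or 3, 0.24 to 0.25, adjusted p = 0.0519 to 0.1), CCNE2 (without A1 replicate 2, 0.48, adjusted p = 0.0572), CDC25A (without A1 replicate 2, -0.24, adjusted p = 0.106) and CCNE1 (without A1 replicate 3, -0.34, adjusted p = 0.0833).

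Against U instead of A1, 6 genes were called with A2, 4 higher and 2 lower, where 35.1% of genes were called, 19.7% higher and 15.4% lower. With A3, 5 genes were called, 3 higher and 2 lower, where 33.7% of genes were called, 18.8% higher and 14.9% lower. CDC25C, CDC25B and CCNB2 rose and CCNE1 and CDC25A fell in both, and CCNE2 rose with A2 (0.56 ± 0.19, adjusted p = 0.0327). The CCNE2 call against U was lost without U replicate 2 or 3 or A2 replicate 1 (0.38 to 0.54), after quantile normalization (0.51, adjusted p = 0.064) and without the filter (adjusted p = 0.0677). That of CDC25A with A2 (-0.37 ± 0.13, adjusted p = 0.0277) was lost without U replicate 1 or 2 or A2 replicate 1 or 2 (-0.40 to -0.32) and with the ACTB covariate (-0.37, adjusted p = 0.0706). That of CCNE1 with A3 (-0.45 ± 0.14, adjusted p = 0.0191) was lost without U replicate 1 (-0.37, adjusted p = 0.0864) or A3 replicate 2 (-0.30, adjusted p = 0.109), and with that covariate (-0.41, adjusted p = 0.0731). With the means of the probe sets, calls against U were gained for CCNA2 (0.36, adjusted p = 0.0274) and CDK1 (0.43, adjusted p = 0.00302) with A2 and for CCNE2 with A3 (0.48, adjusted p = 0.0133). CCNA2 with A2 was not called (0.34 ± 0.14), and was called without U replicate 3 (0.49, adjusted p = 0.0101), and CCNB1 with A3 (0.23 ± 0.10) was called without A3 replicate 1 (0.33, adjusted p = 0.0262).

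The 3 compounds were compared at the same dose and time. A3 against A2 gave limma calls for 0 of the 10 genes, against 0.151% of 8594 genes, and 2 of the 10 had an unadjusted p below 0.05. These were CCNA2 (-0.44, 95% interval -0.73 to -0.14, adjusted p = 0.33) and CCNE1 (0.34, 95% interval 0.04 to 0.64, adjusted p = 0.47). The interval for CDC25C was -0.37 to 0.26 and that for CDC25B -0.54 to 0.04. A1 against U gave limma calls for 0 of the 10 genes, against 0.0349% of all genes, and 0 had an unadjusted p below 0.05. CDC25C had the largest difference there (0.27, 95% interval -0.05 to 0.58).

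**Figure D4:**
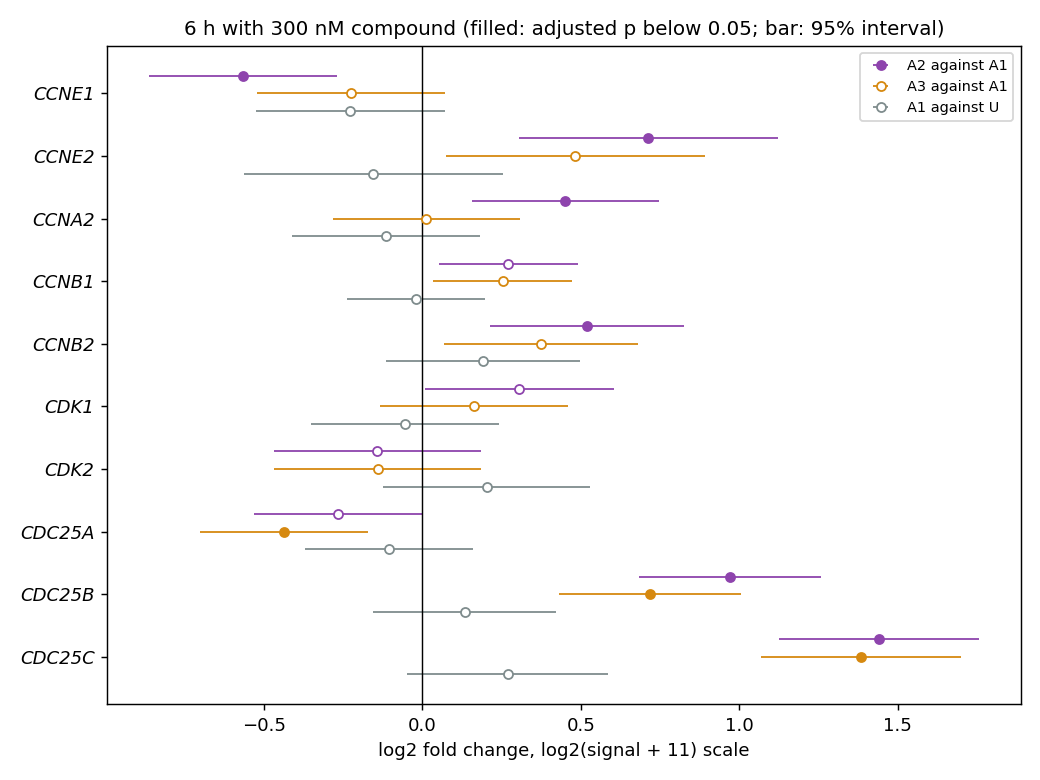
Log2 fold change (horizontal axis, log2(signal + 11) scale) of each gene after 6 h for A2 against A1, A3 against A1 and A1 against U; bars are 95% intervals and filled points were called. CDC25C and CDC25B stand to the right of 0 with both inhibitors, and all A1 against U intervals include 0.

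Within arrays, the same 6 pairs were tested for A2 and A3 together against A1 with an exact permutation test of 84 arrangements, in which the smallest p possible is 0.0119. With the inhibitors the log2 ratio of CDC25A to CDC25C changed by -1.76, that of CDC25A to CDC25B by -1.20 and that of CCNE1 to CCNE2 by -0.99 (adjusted p = 0.0238 by the exact test for each). Without any 1 A1 array these 3 ratios were -1.77 to -1.76, -1.22 to -1.17 and -1.12 to -0.93, and none passed, the smallest adjusted p that the exact test then allows being 0.0714. The direction for CCNE1 to CCNE2 was opposite to that with the hairpin, where it was 1.20. The ratio of CDK1 to CDK2 was at 0.38 (exact permutation test, adjusted p = 0.0893) and at 0.16 with the means of the probe sets, of CCNB1 to CCNB2 at -0.19 (adjusted p = 0.186 by the exact test) and of CCNA2 to CCNB1 at -0.03 (adjusted p = 0.929 by the exact test). Without A3 replicate 2 the exact test passed for CDK1 to CDK2 (0.46, adjusted p = 0.0268) and CCNB1 to CCNB2 (-0.24, adjusted p = 0.0429).

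**Figure D5:**
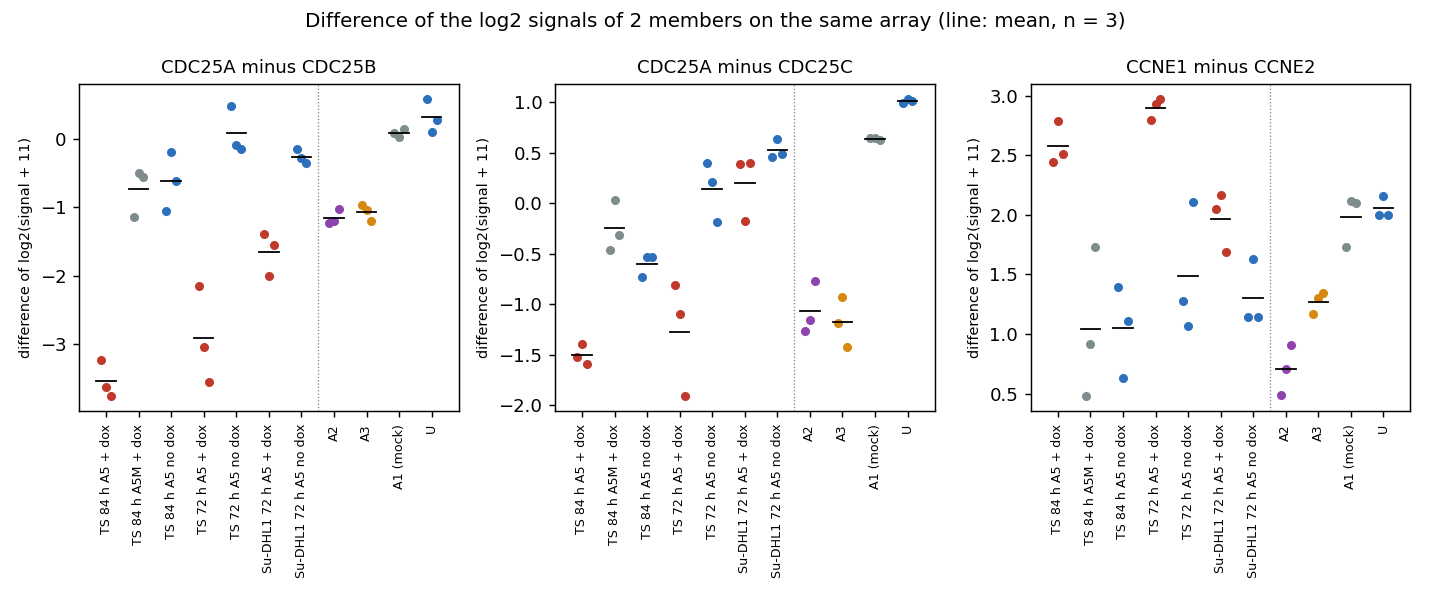
Difference of the log2(signal + 11) values of 2 genes on the same array (vertical axis) in the 11 groups, 3 arrays a group with the mean as a line; a dotted line separates the hairpin groups on the left from the 6 h groups on the right. Only changes between groups can be read, since each probe set has its own response: CDC25A minus CDC25B is lower in each induced group and with A2 and A3, and CCNE1 minus CCNE2 is higher in the induced groups and lower with A2 and A3.

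Set side by side, the hairpin averages and the inhibitor averages had opposite signs for CDC25C (-1.50 and 1.41), CCNE2 (-1.61 and 0.60), CCNB1 (-1.22 and 0.26) and CCNB2 (-0.95 and 0.45), all of which were called in both. CDC25A (-2.38 and -0.35) and CCNE1 (-0.40 and -0.40) were lower in both, and CDC25B was called with the inhibitors alone. With the ACTB ratio as a covariate, only CDC25B and CDC25C kept their call in the inhibitor average, and CCNE1 lost that in the hairpin average too. The agents and the times (6 h against 72 h and 84 h) differ together and cannot be told apart, and the difference between the 2 experiments was not tested.

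Over all 11 groups the lowest mean was that of TS with the induced hairpin at 84 h for 9 of the 10 genes, and U for CDC25B. The highest mean was that of A2 for 7 genes. The ratio of the highest to the lowest group mean was 14.2 for CCNA2, 8.44 for CDK1, 7.42 for CDC25C, 4.96 for CCNB1, 3.89 for CCNB2, 3.40 for CDK2, 3.26 for CCNE1 and 2.21 for CDC25B. Except for CDK2 and CDC25B, the groups divided come from different experiments, and for CDK2 from different lines. These ratios are therefore not sizes of a treatment effect: the CCNA2 mean was 673.8 in U and 459.1 in uninduced TS cells at 84 h. No ratio is given for CDC25A and CCNE2, whose lowest means, 11.2 and 13.4, were close to the added constant. Groups next to each other in the order overlapped in 9 of 10 steps for CDC25B, 8 for CCNE1, 7 for CCNE2, CCNB1, CDK1 and CDK2, 6 for CCNB2, CDC25A and CDC25C, and 5 for CCNA2. For CDC25A the 3 lowest means were 11.2 ± 3.11 (SD, n = 3) in induced TS cells at 84 h, 22.2 ± 12.1 in induced TS cells at 72 h and 93.4 ± 27.2 in induced Su-DHL1 cells, and the highest was 238.8 ± 46.6 in uninduced TS cells at 72 h. The 2 lowest groups of CDC25A overlapped. For CDC25C the 3 lowest means were those of the same induced groups, 51.7 ± 8.05, 66 ± 9.19 and 77.6 ± 8.57, and the highest were 383.4 ± 55.8 with A2 and 369 ± 59.2 with A3. Neighbours overlapped within both of these sets of CDC25C.

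Genes that act on these proteins were described from lists. Among the CDK inhibitors and D cyclins with their kinases, 3 of 10 tested were higher and 2 lower in the hairpin average, with a median of 0.06 against 0.07 over all genes. These counts and those of the lists below stand against 29.1% of all genes called higher and 21.7% lower in the hairpin average, and 21.9% higher and 16.3% lower in the inhibitor average, where the median over all genes was 0.03. The 5 of 10 called here are close to the 50.8% of all genes called in either direction. CDK4, the kinase of the D cyclins, was at -0.77 ± 0.05 and cyclin D3 (CCND3) at -0.59 ± 0.05, whereas the inhibitors CDKN2A and CDKN1A were at 0.50 ± 0.05 and 0.49 ± 0.06. With the inhibitors 3 of 8 were higher and 3 lower, among them CCND3 at -2.04 ± 0.09 and CDKN1B, an inhibitor of CDK2 complexes, at 1.84 ± 0.13. CDKN2A was at 0.64 ± 0.09 and CDKN2D at -0.52 ± 0.13.

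Of the direct regulators of the proteins, 13 of 23 tested were lower, where 21.7% of all genes were, and 3 higher in the hairpin average, with a median of -0.48. FBXO5, an inhibitor of the ubiquitin ligase that destroys cyclins A and B, was at -1.91 ± 0.11, the checkpoint kinase CHEK1, which restrains CDC25A, at -1.49 ± 0.08, the kinase subunit CKS1B at -1.43 ± 0.06 and CDC20, an activator of the same ligase, at -1.28 ± 0.07. With the inhibitors 10 of 23 were higher, where 21.9% of all genes were, and 0 lower, with a median of 0.32. YWHAZ, a 14-3-3 protein, was at 1.19 ± 0.11, the ligase activator FZR1 at 1.02 ± 0.15, the CDK-activating kinase CDK7 at 0.72 ± 0.09 and the inhibitory kinase PKMYT1 at 0.65 ± 0.16.

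Of the transcription regulators of these genes, 10 of 19 tested were lower, where 21.7% of all genes were, and 1 higher in the hairpin average, with a median of -0.31. The repressor E2F8 was at -1.72 ± 0.12, FOXM1, an activator of mitotic genes, at -1.63 ± 0.09, MYC, a general driver of growth, at -1.53 ± 0.05 and MYBL2, which works with the same CHR-bound proteins, at -0.82 ± 0.11. With the inhibitors 6 were higher and 5 lower, where 21.9% and 16.3% of all genes were, with a median of 0.13. MYC was at -6.68 ± 0.20 and E2F5 at -0.97 ± 0.12, and LIN37 and RBBP4, subunits of the DREAM complex, were at 0.86 ± 0.17 and 0.81 ± 0.13.

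Of the other cyclins and CDKs, many of which act in transcription, 8 of 21 tested were higher and 2 lower in the hairpin average, where 29.1% and 21.7% of all genes were, with a median of 0.09 against 0.07 over all genes. CDK5, known for its work in neurons, was at 1.03 ± 0.08, cyclin G2 (CCNG2), a cyclin of arrested cells, at 0.85 ± 0.12, CDK17 at 0.71 ± 0.11 and CCNL1, a cyclin of RNA splicing, at -0.89 ± 0.05. With the inhibitors 9 were higher and 3 lower, where 21.9% and 16.3% of all genes were, with a median of 0.22. CCNG2 was at 2.26 ± 0.20, CDK19, a kinase of the Mediator complex, at 1.07 ± 0.12, CCNL2 at 0.93 ± 0.16 and CCNL1 at -0.70 ± 0.08.

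The pattern over the 21 hairpin arrays was set against every other gene by Pearson's r, as a description, since the arrays share their groups. CDK1 was most like NUSAP1 (r = 0.986) and SMC4 (0.984), both needed for mitotic chromosomes and the spindle, and CDK2 most like UPK1B (0.985) and MCM2 (0.978), a subunit of the replicative helicase. CCNA2 was most like PBK (0.985) and DLGAP5 (0.973), CCNB1 most like PBK (0.977) and CEP55 (0.976), and CCNB2 most like OIP5 (0.984) and PRC1 (0.983). CDC25C was most like PTTG1 (0.974), the securin, and the motor protein KIF15 (0.970), CDC25A most like HSD17B7 (0.970) and POLR1G (0.969), and CCNE2 most like HJURP (0.964) and MYC (0.964). CCNE1 was most like PRMT1 (0.870) and PALS2 (0.840), and CDC25B most like PRSS16 (0.789) and ETV5 (0.775). Among the 10 genes themselves, the median r of a gene with the 9 others was 0.870 to 0.932 for the 8 genes other than CCNE1 (0.593) and CDC25B (0.182). In the 12 arrays at 6 h the closest pair was CDC25B and CDC25C (r = 0.955), and the medians ran from -0.63 for CDC25A to 0.72 for CCNB2.

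Of the 9 further probe sets, 7 passed the filter, and none was called opposite to a main one that was itself called. With A3 against A1, 203213_at of CDK1 was called lower (-0.55), where the main one was at 0.16 and not called. The share called over all probe sets was not counted, so only shares of genes can be set beside these counts. In the hairpin average, where 21.7% of genes were lower, all 7 were called lower with the main probe set of their gene. They were at -0.54 for CCNE2, where the main probe set was at -1.61, at -1.06 for CDC25A, where the main one was at -2.38, and at -1.78 and -1.51 for CDK1, where the main one was at -1.61. In Su-DHL1 cells 4 of the 7 were called, where 24.6% of genes were. For the inhibitor average, 217010_s_at of CDC25C rose too (1.22), 204696_s_at of CDC25A fell (-0.82) and 211814_s_at of CCNE2 rose (0.86). The 3 probe sets of CDK1 disagreed there: the main one was at 0.23 and not called, 203214_x_at was called at 0.66, and 203213_at was at -0.36 and not called.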

How the data were processed

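RNA was measured on Affymetrix HG-U133A arrays. The deposited values are MAS5 signals, a linear intensity per probe set; the submitters' processing notes name MAS5, with no version or settings in the sources used here. They were used as deposited, since each array's mean, with 2% trimmed at both ends, was 200.06 to 200.08. Precision is limited by the number of arrays.

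Of 22283 probe sets, 68 controls were left out, and 19065 of the rest had 1 gene symbol in the platform annotation (1043 had several and 2107 none, and were not named). Probe sets were kept that reached the 40th percentile of the array on 3 or more arrays of a fit, and of a gene's probe sets the one with the highest mean was used. Linear models with a mean per group (limma 3.58.1 in R 4.3.3, lmFit and eBayes with trend) were fitted to the 21 hairpin arrays (9101 genes, 14 residual degrees of freedom) and the 12 arrays at 6 h (8594 genes, 8 residual). P-values are two-sided. On simulated data with 3 arrays a group, 38% of genes changed by 0.5 on the log2 scale, 80% of those changed by 1 and 98% of those changed by 2 were recovered in a simulation of TS at 84 h over 9101 genes. For A2 against A1 over 8594 genes the shares were 12%, 80% and 98%. Only 50 genes were changed at each size, beside 8394 unchanged ones, whereas 33.4% of genes were called for A2 against A1 in the data. The adjusted cutoff was therefore stricter in the simulation, and its shares do not give the share of changes missed in the data.

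The 10 genes, the lists and the tests were chosen with earlier results of these data known. The text names all 10 genes, ALK, up to 4 called genes of each list with the largest change in each average, and the 2 most alike genes of each. The alternatives were an added constant of 1 or 50, no filter, quantile normalization, the mean of a gene's probe sets, the replicate number as a block, the ACTB ratio as a covariate, eBayes without trend, only the compared groups in the fit, and each setting or replicate left out. Python 3.11.15 with matplotlib 3.10.9 drew the figures. Gene symbols and promoter windows are those of GRCh38.p14.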

Additional observations from a re-analysis of the deposited data

Results flagged for a closer look

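The change with the induced hairpin differed between the 2 lines or the 2 times for 5 of the 10 genes, by limma's test of the difference itself, where 2.89% of all genes were called for the lines and 1.27% for the times. Between lines at 72 h (Su-DHL1 minus TS), the differences that passed were 1.80 for CDC25A, 0.86 for CCNA2, 0.76 for CDK1 and 0.48 for CCNB2, all smaller falls in Su-DHL1 cells. For CDC25A the other probe set was at -0.15 and the mean of both at 0.83 (adjusted p = 0.163), so its call rests on the main probe set. Of the 4 further probe sets of these genes 1 was called, 203214_x_at of CDK1, whereas 213226_at of CCNA2 (adjusted p = 0.0967) and 203213_at of CDK1 (adjusted p = 0.196) were not. Between times in TS cells (84 h minus 72 h), the differences that passed were -1.12 for CCNB1, -1.05 for CDK1, -0.98 for CCNA2 and -0.97 for CCNB2, all deeper falls at 84 h. CCNA2, CDK1 and CCNB2 stand in both lists, and both differences use the induced and uninduced TS arrays of 72 h. The mean ACTB 3' to 5' ratio was 1.27 in induced and 1.54 in uninduced TS cells at 84 h, 1.32 and 1.59 at 72 h, and 1.36 and 1.39 in Su-DHL1 cells. With that ratio as a covariate, 2 of the 4 line differences were called, those of CDC25A and CCNB2.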

How the results depend on the processing

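No direction turned under any alternative among called values. Of 267 recomputed counts of called genes, 258 stayed within 1.5 times the main count, and the 9 that moved were all 2. For the line difference (4 genes) this came with the ACTB covariate, with eBayes without trend and without induced replicate 1 of TS, induced replicate 3 or uninduced replicate 2 of Su-DHL1, so that leaving out 1 array gave 2 to 4. For uninduced Su-DHL1 against TS (4 genes) leaving out 1 array gave 2 to 4, with 2 without uninduced replicate 3 of TS or uninduced replicate 2 of Su-DHL1. A2 against A1 (6 genes) and the average for both inhibitors (7 genes) came to 2 with the ACTB covariate. Within pairs, the CDK1 to CDK2 difference with the hairpin was -0.10 without TS at 84 h (adjusted p = 0.25 by the exact test) and -0.39 without TS at 72 h (adjusted p = 0.135 by the exact test), and -0.44 to -0.31 with 1 array left out. After 6 h the CDK1 to CDK2 difference was 0.16 with the mean of the probe sets and 0.26 to 0.49 with 1 array left out. With 1 array left out after 6 h, CCNE1 to CCNE2 was -1.12 to -0.89, CDC25A to CDC25B -1.22 to -1.17, CDC25A to CDC25C -1.83 to -1.70 and CCNB1 to CCNB2 -0.25 to -0.11. Without an A1 array the smallest adjusted p that the exact test could give was 0.0714, which follows from fewer arrangements. The cause of the other changes was not tested. With the replicate number as a block, the count of called genes was 3 for uninduced Su-DHL1 against TS and 4 for A3 against A1, and equal to that without the block in the 14 other comparisons. No pairing by replicate number was seen: deviations of same-numbered arrays correlated at -0.21 to 0.13 over 63 pairs of hairpin groups and at -0.21 to 0.11 over 18 pairs at 6 h. Large noise between arrays could hide a pairing in such correlations, so it was not excluded. The induced signals of CDC25A and CCNE2 in TS cells at 84 h were close to the added constant, so the size of their fall is limited by the signal over background.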
